A study of Glycine max with 18 samples.

Results

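Soybean (Glycine max) seedlings were compared with 5 stages of the seed, to find the genes whose transcripts stood above or below all of them. All 18 libraries entered the comparison, 3 from seedlings and 15 from seed stages, and 51546 gene identifiers were listed in each. Seedling exceeded every seed stage for 5852 of 36872 genes tested and lay under every seed stage for 822. A gene counted as above every seed stage when it was called higher than each of the 5 stages, and as below when it was called lower than each. The call needed an adjusted p under 0.05 in limma and a log2 difference of at least 1.

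All plants were of the cultivar Williams 82, grown in a greenhouse, and the labels name no treatment or altered genotype. Cotyledon-stage embryos were taken from seeds of 2.5 to 3.5 mm in length, and early maturation embryos from seeds of 6 to 7 mm. Mid maturation embryos came out of seeds of 200 to 250 mg, and late maturation embryos out of wholly yellow seeds of 230 to 500 mg. Dry seed was mature seed, given in the labels as seed rather than embryo. Seedlings are recorded at 8 days after sowing, while their titles read 8 DAI without spelling it out. They are labelled as whole seedlings, whereas the headings of their data columns hold the letters COT. Tissue therefore changed together with stage, and the effects of both cannot be told apart. The labels call the replicates biological but do not say which plants each came from, so p-values measure the spread between these libraries.

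In the developing embryo, the cotyledons first grow by cell division, then fill with storage protein and oil, and at last lose water and become quiescent. After sowing, the seedling breaks these reserves down, builds roots and leaves and begins to photosynthesise. Seeds and seedlings of legumes are known to use partly separate sets of genes. The identifiers could not be paired with gene names here, since 0 of the 51546 matched the 59048 genes of the reference table (Glycine max v4.0). No gene is assigned a function, and the tissue labels could not be checked against marker genes. At most 2 genes in each direction are given by identifier.

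Reads recovered from the deposited values numbered 5195421 to 8472161 per library in seedlings and 3572134 to 8776240 in the seed stages. Across the 36872 genes tested, Pearson's r between seedling libraries was 0.986 to 0.989, and between seedling and seed libraries 0.483 to 0.544. Genes are not independent replicates, so these r values are a description. The seedling replicates differed by 1.79 to 2.07 in chi-square per degree of freedom, more than counting noise, and each was kept as a replicate. Within the seed stages, late maturation replicate 1 and dry seed replicate 1 stood furthest from the others of their stage by this measure (13.0 and 13.8, and 7.67 and 8.65), followed by early maturation replicate 3 (5.02 and 7.84). Levels are normalized values, which are CPM (reads scaled to a fixed library total) with trimmed mean of M-values (TMM) scaling.

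Set against the mean of the 5 seed stages, each weighted equally, 10388 genes were higher in seedlings, 28.2% of those tested, and 5108 were lower, 13.9%, together 42.0%. The median log2 difference was 2.01 among the genes that were higher and -1.41 among those that were lower, against 0.03 over all genes tested. A log2 difference of 3 or more in size was reached by 2446 genes that were higher and 376 that were lower. Differences were taken on log2(value + 1), a scale on which changes among weakly read genes appear smaller than they are. The scaling bore on this balance. Genes that were higher made up 67.0% of the calls as deposited and 83.8% with plain CPM (counts scaled by the library total alone), where 13606 were higher and 2622 lower and the median of all genes stood at 0.47. Other rules lowered this share. With no limit on the difference it was 53.1%, with 15281 genes higher and 13503 lower. It was 60.1% when a value of 5 in at least 3 libraries was required. With any 1 seedling library left out and the filter applied anew, it was 58.85% to 61.14%. In bulk tissue, fewer cells of a type and less RNA per cell cannot be told apart.

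The share of genes set apart from every seed stage differed between the 2 directions, in part through the rule itself. Of the 10388 genes higher than the seed mean, 5852 (56.3%) were above every seed stage, 15.9% of all genes tested. Of the 5108 genes lower than the seed mean, 822 (16.1%) were below every seed stage, 2.23% of all genes tested. Both sets together were 18.1% of the genes tested. A gene weak at any 1 seed stage can hardly be called below that stage, but can still be above every stage. Of the 5852 genes, 3275 were tested only through the seedlings and could hardly have been called lower. How much of the contrast between 56.3% and 16.1% comes from these limits was not tested. With plain CPM, 7410 genes were above and 286 below every stage. All genes above or below every stage were also called against the mean. Among genes higher than the mean but not above every stage, the stage not exceeded was cotyledon in 40.8%, early maturation in 39.5%, mid maturation in 37.1%, late maturation in 28.6% and dry seed in 25.9%. A gene could miss more than 1 stage. Among genes lower than the mean but not below every stage, these shares lay closer together, from 37.2% for early maturation to 43.0% for dry seed.

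Stage by stage, seedling was higher than the cotyledon stage for 10477 genes (28.4%) and lower for 8386 (22.7%). It was higher than early maturation for 10702 (29.0%) and lower for 8425 (22.8%), and higher than mid maturation for 10443 (28.3%) and lower for 6462 (17.5%). Against late maturation 13143 genes (35.6%) were higher and 7185 (19.5%) lower, and against dry seed 15403 (41.8%) were higher and 7284 (19.8%) lower. The median log2 difference of all genes tested was also larger there, 0.303 against late maturation and 0.583 against dry seed. It was -0.0143 against cotyledon, 0.0179 against early maturation and 0.0339 against mid maturation. Higher genes outnumbered lower ones against each of the 5 stages, but against the 2 youngest this rested on genes that few seed libraries held. With any 1 seedling library left out and the filter on low values applied anew, 7663 to 7817 genes were higher than cotyledon and 8181 to 8524 lower, and 7902 to 8052 higher than early maturation and 8240 to 8555 lower. With plain CPM the numbers moved most for mid maturation, to 17514 higher and 2034 lower. These 5 comparisons share the seedling libraries, so no overlap among them is given beyond the count that the comparison itself defines.

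**Figure D1:**
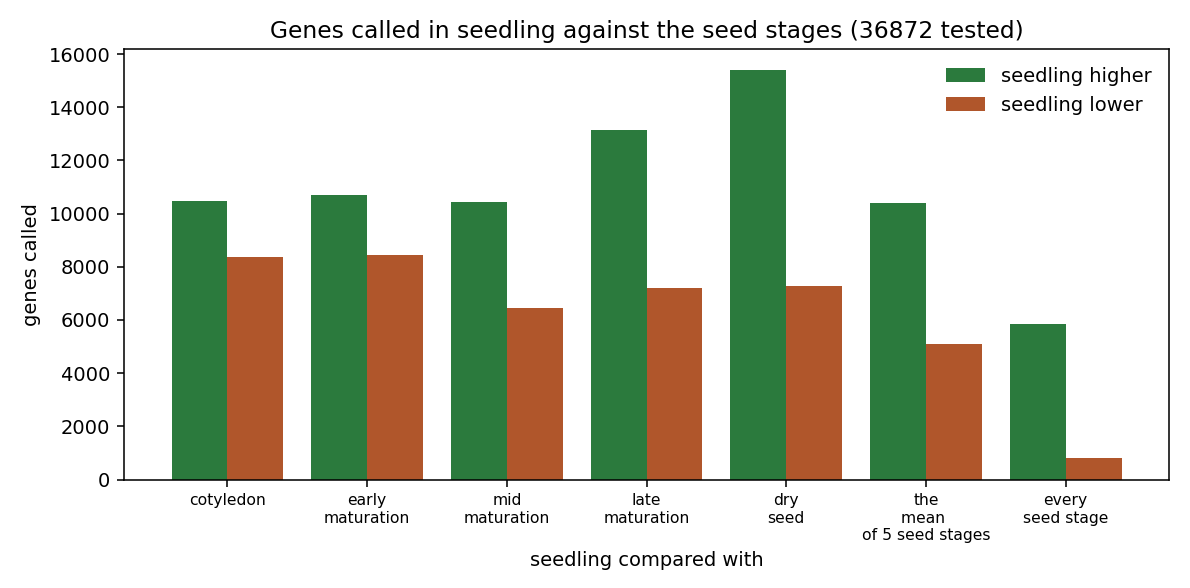
Number of genes called higher (green) or lower (brown) in seedling, by the stage compared with, for each of the 5 seed stages, their mean, and all of them at once. Seedling was above every stage for 5852 genes and below every stage for 822, although it was lower than single stages for 6462 to 8425.

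Most other genes took an intermediate place. Seedling was called higher than 1 to 4 stages and lower than none for 8482 genes, and lower than 1 to 4 stages and higher than none for 11465. It was higher than some stages and lower than others for 5674 genes, 15.4% of those tested. For 4577 genes (12.4%) seedling was called against no stage, which does not show that their levels were alike. By stage means alone, with no test, seedling was the highest of the 6 stages for 9914 genes and the lowest for 5903.

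Genes above every seed stage were mostly weak or unread in the seed and moderate in seedlings. Their median level was 10.7 in seedlings, against 0.286 for cotyledon, 0.299 in early maturation, 0.316 in mid maturation, 0.147 in late maturation and 0.0879 in dry seed. The middle 50% of them lay between 4.34 and 29.2 in seedlings. Every seed stage mean was under 1 for 3081 of them (52.6%), and no seed library held a read for 141. A value of 1 was reached in fewer than 3 seed libraries by 3275 of the set, so these were tested only through the seedlings. Low seed levels in most of the set thus follow in part from the filter. The highest seed stage mean was from 1 to under 10 for 1986 genes and 10 or more for 785, so 13.4% were well read in at least 1 seed stage and still higher in seedlings. In seedlings 452 had a mean of 100 or more.

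The size of the rise was large for many of these genes. Their median log2 difference from the seed mean was 2.69, and 399 of them differed by 5 or more. With each stage that held no read set to 3 reads per library, the median was 2.54. Against the nearest seed stage the median was 1.99, and the difference was 3 or more for 1322 genes and 5 or more for 213. The median over these genes of the SD between seedling replicates was 0.138 on the same log2 scale. A difference beyond the replicate error is what the call itself requires. All 3 seedling libraries exceeded all 15 seed libraries for 5840 of the 5852. Among all genes tested, 8179 (22.2%) showed this separation upward and 3087 (8.37%) downward.

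The filter on low values bears on the count of genes above every stage. A gene was tested when it reached a value of 1 in at least 3 libraries, and 3882 genes reached that value in fewer than 3 seed libraries. Of the 5852 genes, 3275 were among these and could hardly have been called lower. Among the 32990 genes with a value of 1 or more in at least 3 seed libraries, 2577 (7.81%) were above every seed stage and 822 (2.49%) below. Higher genes outnumbered lower ones there too. A stricter filter, a value of 5 in at least 3 libraries, left 3868 genes above and 816 below every stage. With any 1 seedling library left out, 3200 to 3250 genes were above every stage when the filter was applied anew, and 5819 to 5878 when the same 36872 genes were tested. Of the 14674 identifiers not tested, 1553 had all 3 seedling libraries above all 15 seed libraries and 1 had them below.

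These genes held a large share of the seedling's reads. As a percent of the reads of a library, they summed to 29.5%, 30.0% and 29.3% in the 3 seedling libraries, 29.6% ± 0.340 (SD, n = 3). In the seed they summed to 2.57% ± 0.115 for cotyledon, 2.38% ± 0.0484 in early maturation, 0.994% ± 0.0416 in mid maturation, 1.29% ± 0.0670 in late maturation and 1.24% ± 0.0154 in dry seed. The seedling libraries did not overlap with any seed library, and cotyledon and early maturation lay above the later stages. The genes were chosen on these libraries, so the shares describe them and test nothing. Reads were not corrected for transcript length.

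Genes below every seed stage took the reverse course. They summed to 1.76%, 1.65% and 1.78% of the reads in the seedling libraries, 1.73% ± 0.0692 (SD, n = 3). In the seed they held 7.13% ± 0.131 of cotyledon-stage reads, 13.6% ± 0.432 of early maturation reads, 12.5% ± 0.163 of mid maturation reads, 11.6% ± 0.662 of late maturation reads and 11.2% ± 0.138 of dry seed reads. The cotyledon stage was thus the lowest of the seed stages for this sum, and each of its libraries lay above each seedling library. The genes lower than the seed mean but not below every stage are a larger set, 4286 against 822, and held more reads in total. Their share was highest at mid maturation, 56.4% ± 0.653. Among the seed stages it was lowest at the cotyledon stage, 23.9% ± 0.475, and in seedlings it was 6.43% ± 0.193.

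**Figure D2:**
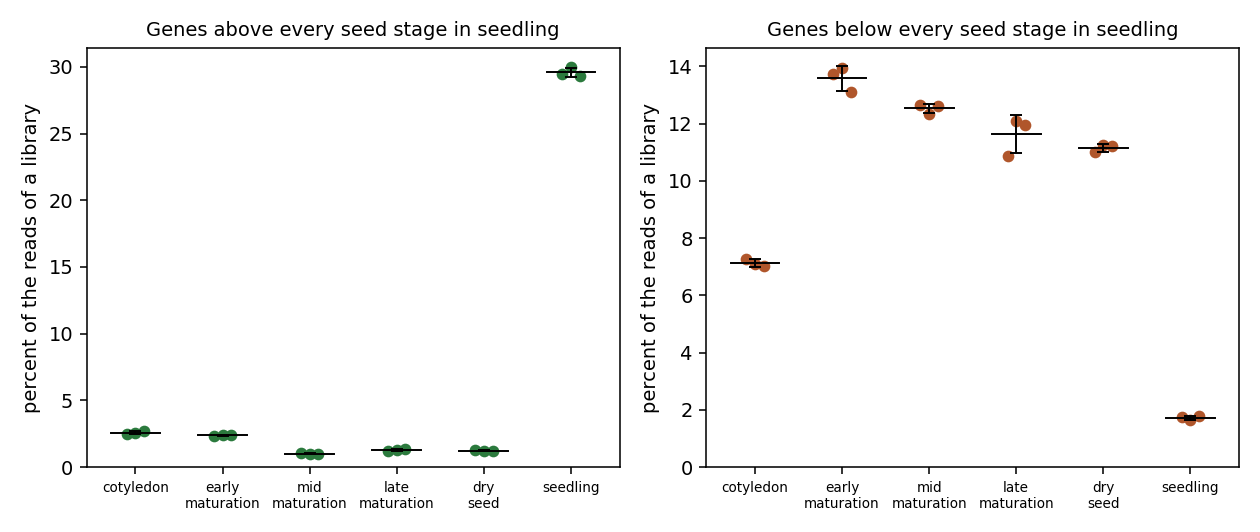
Percent of the reads of each library that fell to the 5852 genes above every seed stage (left) and the 822 genes below every seed stage (right). Points are libraries, and bars are the mean and SD of 3. The left sum is 29.3% to 30.0% in seedlings and at most 2.70% in the seed, and the right sum is at most 1.78% in seedlings and at least 7.01% in the seed.

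Few of the genes below every stage were silent in seedlings. Their median level was 4.59 in seedlings, against 24.3 for cotyledon, 28.2 for early maturation, 26.6 for mid maturation, 35.6 for late maturation and 37.0 for dry seed. The seedling mean was under 1 for 123 of them, from 1 to under 10 for 473 and 10 or more for 226. No read was found in any seedling library for 2. In the seed, 551 had a mean of 10 or more at every stage and 40 reached 1000 or more at some stage. Their median log2 difference from the seed mean was -2.02, and 169 of the 822 differed by 3 or more in size. Against the nearest seed stage the median was -1.31, so many stood close to the limit of 1, and 40 differed by 3 or more. All 3 seedling libraries lay under all 15 seed libraries for 818 of them. Among all genes tested 3087 (8.37%) showed this separation, which the calls themselves nearly require.

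The 2 sets fell in different classes of mean level over the 6 stages. That mean takes 5 of its 6 values from the seed. A gene high only in seedlings therefore falls in a lower class than one equally high at every seed stage. The classes thus partly restate the calls. To keep out genes that entered the test through the seedlings alone, shares are given for the 32990 genes with a value of 1 or more in at least 3 seed libraries. From a mean over the 6 stages of 1 to under 5, 12.7% of them were above every seed stage and 0.323% below. From 5 to under 50 the shares were 6.96% above and 2.62% below, and from 50 to under 500 they were 5.48% above and 7.60% below. Among the 142 genes with a mean of 500 or more, 1 was above and 31 (21.8%) were below every stage. In the class under 1, 6 of 1886 genes were above and 0 below. A gene low at all stages can hardly be called lower under the limit used, which bears on the lowest classes.

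The seed stage nearest to the seedling differed among the genes. For those above every stage, the nearest was cotyledon for 1642 (28.1%), early maturation for 1363, mid maturation for 1311, late maturation for 799 and dry seed for 737 (12.6%). The stage furthest away was dry seed for 1521 and late maturation for 1334. For those below every stage, the nearest was mid maturation for 218 (26.5%), cotyledon for 208 (25.3%) and dry seed for 174, and the furthest was dry seed for 246 (29.9%). Ties went to the earliest stage, for nearest and furthest alike. The 141 genes with no read in any seed library were thus counted under cotyledon. Every seed stage mean was under 1 for 52.6% of the genes above every stage, where a few reads can set the order.

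**Figure D3:**
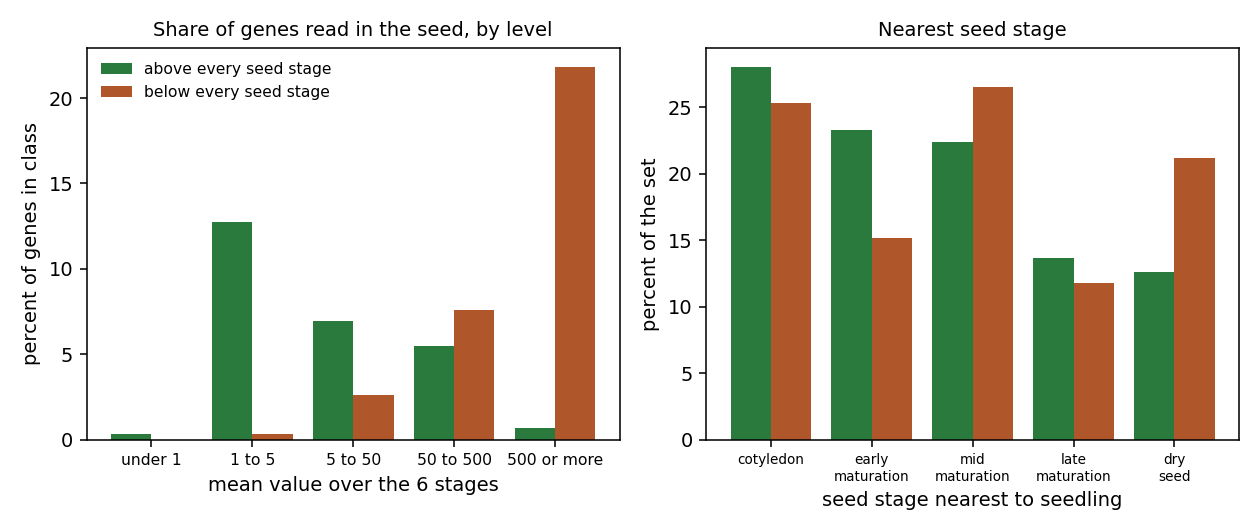
Left, among genes with a value of 1 or more in at least 3 seed libraries, percent in each class of mean value over the 6 stages that were above (green) or below (brown) every seed stage. Right, percent of each set by the seed stage nearest to seedling on the log2 scale, with ties given to the earliest stage. The share above every stage is 12.7% in the class from 1 to 5 and 0.704% in the highest, and the share below is 21.8% in the highest.

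The abundant transcripts of each stage showed the same division. Over all genes tested, 15.9% were above and 2.23% below every stage, and 28.2% were higher and 13.9% lower than the seed mean. Of the 100 genes with the highest level in seedlings, 58 were above every seed stage, 3 were below, and 85 were higher than the seed mean. They held 11.4% ± 0.163 of the seedling reads. Of the 100 most abundant genes of mid maturation, 29 were below every stage and 82 were lower than the seed mean, with a median log2 difference of -5.18. These figures were 24 and 86 for late maturation, with a median of -4.42, and 18 and 80 for dry seed, with -3.03. At the cotyledon stage 14 were below every stage and 59 lower than the mean, with a median of -1.20. At early maturation the figures were 18 and 64, with a median of -1.49. None of the top 100 of any seed stage was above every stage, as a top gene of the seed had little room to be. Each group was chosen on libraries that enter the comparison.

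Genes above every stage stood beside one another more often than their overall share. Soybean identifiers carry a chromosome number and run along it. For 5822 of these genes a next tested identifier with the same number existed, and it was also above every stage for 1364 of them (23.4%), against 15.9% of all genes tested. Runs of 3 or more such neighbours numbered 258 and held 910 genes, and the longest had 8. Of the genes below every stage, 2.59% had a next identifier in the same set, near the 2.23% of all genes tested, and there was 1 run of 3. The genes above every stage include the 3275 that were tested only through the seedlings, and neighbours were not counted with these left out. Neighbours that are copies of one gene may share reads, and how the authors assigned such reads is not given in the sources used here. Their part in the result was not tested. By chromosome number, the share above every stage ran from 13.8% on chromosome 4 to 17.9% on chromosome 15, and the share below from 1.78% on chromosome 9 to 2.80% on chromosome 19.

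On the log2(value + 1) scale, and where the seedling mean was 50 or more, the largest rise was that of Glyma.09G038600, numbered on chromosome 9. Its value was 1459, 1659 and 1447 in the 3 seedling libraries, and between 0.517 and 8.56 in the 15 seed libraries, with a median of 0.678. The seed value of 8.56 was that of cotyledon replicate 3, and every other seed library lay at 1.49 or less. The log2 difference from the seed mean was 9.55 (SE 0.305, limma adjusted p = 2.21e-17), and against single stages it ran from 8.86 to 9.90.

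The next was Glyma.19G223000, numbered on chromosome 19. Its seedling values were 1072, 1211 and 1066, and its seed values ran from 0 to 5.58 with a median of 0.532. Cotyledon replicate 3 was again the highest seed library, while the others were at 1.17 or less and 1 mid maturation library held no read. The log2 difference from the seed mean was 9.40 (SE 0.330, limma adjusted p = 1.1e-16). The order of these 2 genes depended on the test, since edgeR on the recovered reads gave 10.52 for Glyma.19G223000 and 10.45 for Glyma.09G038600.

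Among genes below every stage with a mean of at least 5 at each seed stage and at least 50 at one, Glyma.19G063400, numbered on chromosome 19, was lowest relative to the seed mean. Its values were 5.50, 4.84 and 3.60 in seedlings. Cotyledon-stage embryos had 304 ± 33.3 (SD, n = 3) and early maturation embryos 6975 ± 569. Mid maturation had 15986 ± 126, late maturation 1172 ± 152 and dry seed 1157 ± 108. The gene thus peaked at mid maturation and stayed well read in dry seed, and no seed library came near the seedlings. It fell by 8.58 on the log2 scale relative to the seed mean (SE 0.12, limma adjusted p = 2.99e-22), and the nearest stage was cotyledon, with a difference of -5.76.

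Glyma.16G071800, numbered on chromosome 16, had seedling values of 6.92, 3.32 and 4.39. Cotyledon-stage embryos had 19.9 ± 3.69 (SD, n = 3) and early maturation embryos 7605 ± 313. Mid maturation had 13928 ± 83.2, late maturation 1662 ± 368 and dry seed 2438 ± 536. It was below every stage, but the young embryo lay much nearer to the seedling than the later stages did. The difference was -1.86 against cotyledon and -11.26 against mid maturation, and -8.08 against the seed mean (SE 0.159, limma adjusted p = 2.47e-20). With the cotyledon stage left out of the mean it was -9.63, below the -9.29 of Glyma.19G063400. Much of the soybean genome is duplicated, and reads shared between close copies make each of these values uncertain.

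**Figure D4:**
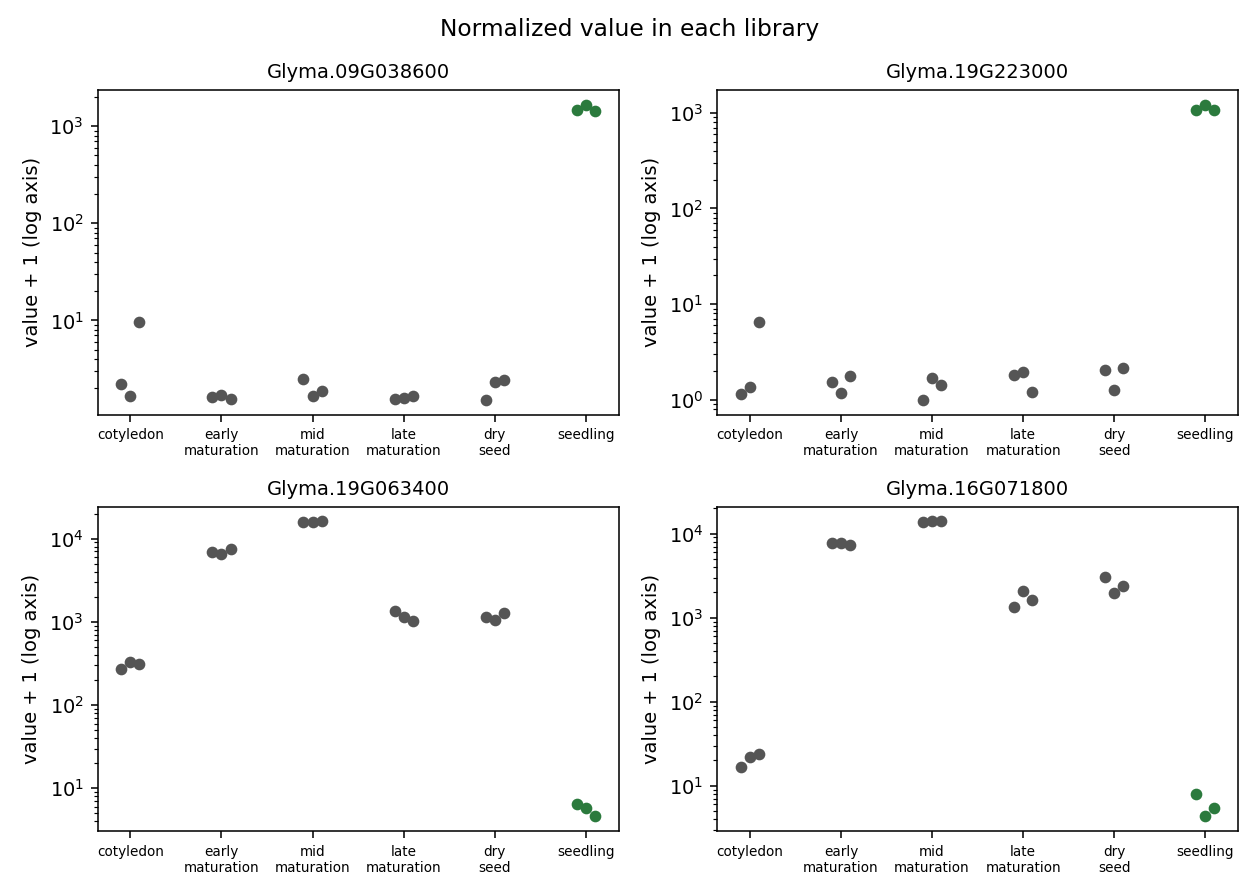
Normalized value + 1 on a log axis in each of the 18 libraries for the 2 genes with the largest rise (top) and the 2 with the largest fall (bottom), with seedlings in green. In the top panels the seedling values are 1066 or more and cotyledon replicate 3 is the highest of the seed libraries.

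Cotyledon replicate 3 was the highest of the 15 seed libraries for 666 of the genes above every stage (11.4%), more than any other library. Mid maturation replicates 3 and 1 followed, with 554 (9.47%) and 538 (9.19%). This measure also depends on depth, as 1 read was worth 0.434 in mid maturation replicate 3, which had the fewest reads. In cotyledon replicate 3 a read was found for 4583 of the 5852, against 3796 and 4317 in the other cotyledon libraries and 4598 in early maturation replicate 3. They summed to 2.70% of its reads, against 2.49% and 2.53%. Its reads numbered 5540449, and those of the others 5010245 and 7931127. Without it, 5840 genes were above every stage, 5817 of them the same, and 825 were below. Without early maturation replicate 3 the counts were 5818 and 806, without late maturation replicate 1 they were 5831 and 831, and without dry seed replicate 1 they were 5855 and 824.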

How the data were processed

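Messenger RNA was sequenced from 18 libraries of 6 stages, 3 per stage, grouped by their titles. The deposited signal values are normalized read counts per gene, 1 file per library. The submitters' processing notes name Bowtie 0.12.7 and edgeR 3.0.8. The build, the annotation and the way reads were counted: not given in the sources used here. Deposited values were whole multiples of the value of 1 read: 99.9997% of 927828 came within 0.05 of a whole read, and the scaling matched recomputed TMM factors (largest relative difference 3.84e-07). A count of 3 reads corresponded to a value of 0.263 to 1.30. Counting error sets the precision of low values, and PCR copies are not independent molecules.

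A single model over all libraries was fitted with limma 3.58.1 (R 4.3.3; two-sided, with a mean-variance trend) to log2(value + 1). Genes entered where 3 or more libraries reached a value of 1, with Benjamini-Hochberg adjustment over all genes tested. The model was also run on simulated counts in which all seed stages were alike and the dispersion was fixed. The calls for every stage were thus not tested under conditions like these data. Alternatives covered pseudocount, filter, scaling, replicate block, limit on the difference, trend, thinning, libraries or seed stages left out, and edgeR 4.0.16 and DESeq2 1.42.0 on recovered reads. Plain CPM was added after seeing the data, as were seedling libraries left out with the tested genes kept. The 4 named genes have the largest differences among genes above or below every stage with the level limits given and no overlap between seedling and seed libraries. Genes and tests were chosen with earlier results of these data known. Lists of genes by function, tissue markers and promoter motifs were not analysed here, since identifiers could not be paired with names.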

Additional observations from a re-analysis of the deposited data

How the results depend on the processing

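Under 40 other settings, 470 of 510 counts of calls moved by no more than 1.5 times. Many of these counts could hardly move, so the 470 is no measure of stability. Leaving out 1 seed library nearly fixes the comparisons of seedling with the other seed stages. Without dry seed replicate 1, for example, 10472 genes were higher than cotyledon, against 10477 with all libraries. The 4 named genes kept direction and call in all 160 values, which their choice for the largest differences made nearly certain. In the order higher than the mean, lower than the mean, above every and below every stage, the counts were 6455, 3324, 3718 and 429 with a pseudocount of 4, which shrinks differences at low values, and 5233, 992, 2911 and 117 with a log2 limit of 2, a stricter rule by construction. With a pseudocount of 4, seedling was higher than early maturation for 7064 genes, mid for 6794, late for 8146 and dry seed for 9695, and lower than mid for 4043. With a limit of 2, higher and lower genes numbered 5673 and 3042 (cotyledon), 5425 and 2923 (early), 5432 and 1812 (mid), 7040 and 2333 (late), 8609 and 3036 (dry seed). With no limit, a looser rule, 15281 genes were higher than the mean and 7791 above every stage. Lower genes then numbered 13503 against the mean and 2922 for every stage. For the cotyledon, early, mid and late stages they numbered 13872, 13805, 12864 and 11755. With plain CPM, 2622 genes were lower than the mean and 286 below every stage. Seedling was then higher than mid maturation for 17514 genes and lower for 2034, lower than late for 4020 and lower than dry seed for 4717. TMM scaling and total counts differ most for mid maturation. Median-of-ratios rescaling gave 11653 higher and 3839 lower genes, and a median of all genes of 0.22. On recovered reads, edgeR called 13003 genes higher and 6063 lower than the mean, 6394 above and 1235 below every stage, and the cause of the larger last count was not tested. A value of 5 in 3 libraries left 3868 genes above every stage, with 29159 tested. Leaving out 1 library gave 3200 to 5860 genes above every stage. The lowest values, 3200, 3250 and 3202 without seedling replicates 1, 2 and 3, arose as the filter then removed genes that too few seed libraries held at a value of 1. With the same genes tested they were 5838, 5878 and 5819. Below every stage the range was 745 to 886.

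The replicate block left all counts against the mean (10388 and 5108) and for every stage (5852 and 822) as reported. Every stage holds the same replicate numbers, so the block cannot change a log2 difference, and this outcome was nearly fixed. The numbers gave no pairing: among 15 pairs of a seedling and a seed library with 1 number, 0 had deviations correlated above 0.1 (-0.0844 to 0.0510), and 8 of 18 libraries correlated best with their own number.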
